A study of Mus musculus with 16 samples.

Results

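The comparison set polysome-bound RNA against the cytoplasmic RNA it came from in mouse embryonic stem cells (ESCs) that carried a non-targeting control siRNA. All libraries came from 46C ESCs, a line of strain 129Ola with GFP at the Sox1 locus, kept on gelatin with LIF and harvested 48 hr after transfection. Cells were held in cycloheximide for 10 min, which stops ribosomes on their mRNAs. From each lysate, 10% was kept as input (labelled cytoplasmic RNA), and the rest was spun through a sucrose gradient, of which fractions 17 to 22 were pooled as polysomes. There were 4 input and 4 polysome libraries, 8 of the 16 in the series. The other 8 libraries had the same layout in cells given RAM siRNA. Genes were kept when they had at least 1 CPM (a count scaled to library size) in at least 4 of the 8 control libraries, which left 13559 of the 46983 genes listed. All log2 values below are polysome minus input, fitted with a factor for the replicate number, with a standard error (SE), and adjusted p-values are those of the quasi-likelihood test in edgeR. No spike-in was used, so a log2 of 0 is the level of a typical mRNA in the normalised libraries, and every value is a gene's share of the polysome RNA against its share of the input RNA.

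An mRNA moves into heavy gradient fractions by carrying several ribosomes at once. How many it carries depends on how often translation starts, how fast ribosomes travel and how long the reading frame is, so a short reading frame has room for few. Noncoding RNAs that carry no ribosomes stay at the top of the gradient, and mRNAs can also be held there by proteins that bind their untranslated regions (UTRs) or by short upstream reading frames. Input RNA was purified with Trizol, and polysome RNA with phenol and lithium chloride. The fraction and its extraction cannot be told apart here, and lithium chloride is known to precipitate small RNAs poorly.

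The input libraries held 16697205 to 19140331 gene counts each and the polysome libraries 17845867 to 19755690. The 6 ESC markers (Pou5f1, Nanog, Sox2, Zfp42, Esrrb and Dppa5a) summed to 2473 to 2771 CPM in input and to 2798 to 4125 CPM in polysomes. The markers of neural cells summed to 77.1 to 90.9 CPM in input, those of primitive endoderm to 21.2 to 23.0, those of mesoderm to at least 18.5 and those of fibroblasts to 8.56 to 10.1. Malat1, Neat1, Kcnq1ot1 and Meg3, RNAs known to stay in the nucleus, summed to 4490 to 7759 CPM in input and 114 to 263 CPM in polysomes, so the input lysate held nuclear RNA in spite of its label. Nuclear RNA and cytoplasmic RNA free of ribosomes cannot be told apart in input. Polysome libraries 1 and 2 differed from 3 and 4 in many short and long mRNAs, and pair values are given where they did. The labels name no batch for this.

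Of the 13559 genes, 4818 were higher in polysomes (35.5% of those tested) and 5188 were lower (38.3%) at an adjusted p under 0.05. Against a threshold of 1.5-fold, 2492 (18.4%) were higher and 3278 (24.2%) were lower. The median of all genes was −0.03, and the middle 50% of genes lay between −0.81 and 0.62. Since most genes passed the test, the count of a gene class is read against these shares, and its median is given beside it, with the same-numbered pairs where they differed in sign or widely.

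Noncoding RNAs were poor in polysomes. Protein-coding genes took 86.2% to 87.5% of the counts in input and 96.4% to 97.8% in polysomes. Long noncoding RNAs (lncRNAs) took 2.05% to 2.59% in input and 0.334% to 0.634% in polysomes, and small structured RNAs 3.41% to 4.10% and 0.0468% to 0.102%. Of 432 lncRNA genes tested, 410 were lower and 7 were higher, with a median of −2.47. Of these 432, 202 were below 1 CPM in every polysome library and 0 in every input library, so those 202 entered the test only through input, where they had to be high, and the count is a description. The same holds more strongly for the small RNAs that guide RNA modification or splice pre-mRNA in the nucleus. Of the 94 small nucleolar RNAs (snoRNAs) that passed the filter, 77 did so only through input, as did 11 of 18 spliceosomal snRNAs and 7 of 12 Cajal body RNAs. The medians were −4.26, −5.39 and −5.95, and no member that passed was higher. For RNAs this small, the fraction and its extraction again cannot be told apart.

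Of the list of nuclear and structural RNAs, 24 were tested and all 24 were lower, with a median of −4.40, but 6 of them were below 1 CPM in every polysome library. Malat1, a lncRNA of nuclear speckles, read 5084, 4898, 7022 and 3903 CPM in input replicates 1 to 4 and 223, 169, 148 and 106 CPM in polysomes. The log2 was −5.04 (SE 0.20, adjusted p = 3.15e-06), or 32.8-fold lower. Meg3, an imprinted lncRNA, read 139, 147, 204 and 139.9 CPM in input and 4.24, 3.34, 4.62 and 3.21 CPM in polysomes, 40.7-fold lower (SE 0.13 on the log2 scale, adjusted p = 1.74e-06). For both genes every polysome library was below every input library. Neat1, the scaffold of paraspeckles, was at −4.49, and Tug1 at −3.19. Kcnq1ot1, an antisense RNA that silences an imprinted cluster, was at −2.11 (SE 0.38, adjusted p = 0.0013).

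RNAs made by RNA polymerase III were also low. Rmrp, the RNA of the ribonuclease MRP that cuts pre-rRNA, read 15012, 17623, 15570 and 14275 CPM in input and 75.8, 76.6, 70.8 and 189 CPM in polysomes. It was 167-fold lower (log2 −7.38, SE 0.34, adjusted p = 4.62e-06), and its polysome library 4 stood apart from the other 3. Rpph1, the RNA of ribonuclease P, was at −6.05, and Rn7sk, which holds the elongation factor P-TEFb inactive, was at −5.20.

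The host genes of snoRNAs form a separate case, since their spliced RNAs are exported, are read by ribosomes over short frames and are then destroyed by nonsense-mediated decay. All 15 tested were lower, between −4.90 and −3.09, with a median of −3.59. Gas5 read 178, 170.3, 184 and 187 CPM in input and 16.3, 14.3, 15.7 and 15.6 CPM in polysomes, 11.6-fold lower (log2 −3.54, SE 0.10, adjusted p = 1.74e-06). Snhg1 was at −3.44, Snhg12 at −3.52 and Zfas1 at −3.45. The other lncRNA that stood out by level, Lncenc1, which ESCs express strongly, read 219, 207, 246 and 227 CPM in input and 63.9, 67.4, 53.3 and 95.0 CPM in polysomes. Its log2 of −1.71 (SE 0.15, adjusted p = 3.58e-05) was above the lncRNA median. Ifi30, at 1.59 (adjusted p = 9.18e-06), was among the 7 entries of this class that were higher, and its symbol is that of a protein-coding gene.

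All 15 mitochondrially encoded genes tested were lower, with a median of −2.39, and 4 of them were below 1 CPM in every polysome library. They are translated inside mitochondria by mitochondrial ribosomes. Their share of counts was 5.95% to 6.66% in input and 1.10% to 2.09% in polysomes. mt-Co1, a core subunit of complex IV, read 16872, 17218, 17963 and 14827 CPM in input and 4798, 4233, 5312 and 3612 CPM in polysomes. It was 3.75-fold lower (log2 −1.91, SE 0.12, adjusted p = 1.22e-05), with every polysome library below every input library. mt-Nd1 was at −3.10 and mt-Cytb at −2.77. The 9 mitochondrial mRNAs had a median of −2.83, and the 6 mitochondrial rRNAs and tRNAs one of −2.21. The nuclear-encoded subunits of the same respiratory complexes are described with the other protein families.

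Entries known to take reads of ribosomal RNA, and short entries typed as miRNA, did not share a direction. The kit depletes rRNA, so what is left of it depends on that step. Gm23935 read 318, 284, 592 and 358 CPM in input and 1482, 839.7, 2142 and 3782 CPM in polysomes, with a log2 of 2.25 (SE 0.28, adjusted p = 0.000186). Mir6236 was at 2.82 (SE 0.32) and Gm24187 at 2.28 (SE 0.30). Gm42418 read 1317, 1675, 1358 and 1246 CPM in input and 618, 172, 1787 and 2464 CPM in polysomes, and the groups overlapped (log2 −0.66, SE 0.65, adjusted p = 0.38). Its log2 was −2.18 in replicates 1 and 2 alone and 0.71 in replicates 3 and 4 alone. Gm26917, the neighbouring locus on chromosome 17, was lower in polysomes at −2.71 (SE 0.23, adjusted p = 2.81e-05), with means of 8140 CPM in input and 1280 CPM in polysomes. Both loci were chosen after their values were seen. Lars2, the mitochondrial leucyl-tRNA synthetase, had the highest log2 of the genes with a protein that the naming rule took, and its polysome libraries 3 and 4 were its highest, as for Gm23935 and Gm42418. It read 43.5, 31.9, 33.2 and 31.2 CPM in input and 90.5, 53.5, 235 and 411 CPM in polysomes. The log2 of 2.08 (SE 0.49, adjusted p = 0.00511) was 0.90 in replicates 1 and 2 alone and 3.29 in replicates 3 and 4 alone. The part of rRNA reads in the Lars2 value was not tested.

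Among the 12375 protein-coding genes the polysome share changed with the length of the reading frame, and it did so in both directions. Lengths are residues of the coding sequence in a representative transcript of each gene in GENCODE vM21. Of 239 genes with fewer than 100 residues, 218 were lower and 1 was higher, with a median of −1.40. The median was −0.22 for the 1327 genes of 100 to under 200 residues and 0.43 for the 3504 genes of 200 to under 400 residues, of which 1875 were higher and 828 lower. It was 0.19 for the 4586 genes of 400 to under 800 residues and −0.28 for the 2123 genes of 800 to under 1600. Of 596 genes with 1600 residues or more, 23 were higher and 433 lower, with a median of −0.96. Across genes, Spearman's rho between residues and log2 was 0.33 below 400 residues (n = 5070 genes) and −0.36 from 400 residues up (n = 7305 genes). Genes of one library set are not independent, so these are descriptions.

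The shortest and the longest class were lower in all 4 pairs, but by different amounts. The median of genes with fewer than 100 residues was −1.65, −1.63, −1.36 and −0.87 in pairs 1 to 4, and that of genes with 1600 residues or more was −0.88, −0.37, −1.46 and −1.23. Pairs 1 and 2 were thus lower for short frames, and pairs 3 and 4 for long ones. The class of 100 to under 200 residues changed sign between pairs, from −0.51 and −0.56 in pairs 1 and 2 to −0.05 and 0.21 in pairs 3 and 4. The class of 200 to under 400 residues was above 0 in every pair, between 0.25 and 0.59.

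**Figure D1:**
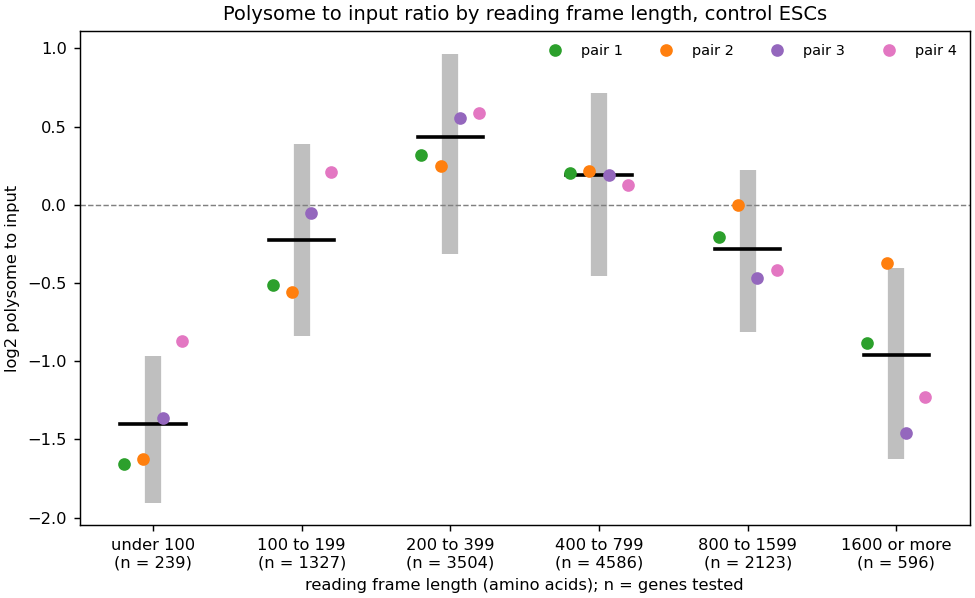
Log2 of polysome over input (vertical axis) for coding genes by residues of the reading frame (horizontal axis, with the number of genes). Grey bars span the middle 50% of genes, black lines are medians and coloured points are the medians of the 4 same-numbered pairs. The medians rise from −1.40 below 100 residues to 0.43 at 200 to under 400 residues and end at −0.96 from 1600 residues up.

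Ribosomal proteins, which share a 5′ terminal oligopyrimidine (TOP) start that ties their translation to growth signals, were spread across the whole range. Of 79 tested, 22 were higher and 27 lower, with a median of −0.18 that was −0.49 and −0.64 in pairs 1 and 2 and 0.11 and 0.28 in pairs 3 and 4. They sorted by size. Of the 19 with at most 123 residues, 18 were lower and 0 higher (median −1.29). Of the 38 longer ones below 200 residues, 6 were higher and 8 lower (median −0.17). Of the 22 with 200 residues or more, 16 were higher and 1 was lower (median 0.60). Spearman's rho between residues and log2 was 0.83 over the 79 genes.

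Rpl41, whose product has 25 residues, read 723, 707, 701 and 774 CPM in input and 99.8, 90.5, 95.5 and 132 CPM in polysomes, 7.02-fold lower (log2 −2.81, SE 0.11, adjusted p = 3.15e-06). Rps29, of 56 residues, read 1137, 1074, 1079 and 1094 CPM in input and 149.7, 148, 173 and 208 CPM in polysomes, 6.51-fold lower (SE 0.13 on the log2 scale, adjusted p = 4.62e-06). Rpl4, of 419 residues, read 1287, 1217, 1206 and 1419 CPM in input and 2372, 2001, 2087 and 2493 CPM in polysomes, 1.74-fold higher (log2 0.80, SE 0.10, adjusted p = 0.000176). In each of these genes the polysome and input libraries did not overlap. Rplp0 and Rps2 departed from the order by size. Rplp0, a stalk protein of 317 residues, was lower at −0.46 (SE 0.11, adjusted p = 0.00572) and was the only member of its size class to be so. Rps2 has 293 residues. It read 1150, 1117, 1108 and 1242 CPM in input and 917, 779.7, 1087 and 1283 CPM in polysomes, which overlapped (log2 −0.21, SE 0.12, adjusted p = 0.167). Rpl7a was at 1.14 and Rpl3 at 0.54. Many ribosomal protein mRNAs have near-identical processed pseudogenes that can take or hide reads, and the entry listed under Rpl24 had a mean of only 1.59 CPM, so its value is uncertain.

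Other mRNAs with a TOP start encode translation factors. Of 16 tested, 12 were higher and 3 lower, with a median of 0.58. Eef1a1, the factor that brings aminoacyl-tRNA to the ribosome, read 5866, 5566, 5363 and 6460 CPM in input and 9006, 7777, 7291 and 8095 CPM in polysomes. The libraries did not overlap (log2 0.47, SE 0.11, adjusted p = 0.00603), but the call was lost without replicate 1 (0.42, adjusted p = 0.0626). Eef2, the translocation factor, read 1408, 1342, 1392 and 1530 CPM in input and 1090, 1213, 851 and 1152 CPM in polysomes. It was lower (log2 −0.41, SE 0.12, adjusted p = 0.0146), and the call was lost without replicate 1 (−0.42, adjusted p = 0.0596) and without replicate 3 (−0.31, adjusted p = 0.104). Pabpc1, the poly(A) binding protein, was lower at −0.96 (SE 0.17, adjusted p = 0.00132).

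The mitochondrial ribosomal proteins, encoded in the nucleus, showed the same order by size. Of 77 tested, 46 were higher and 12 lower, with a median of 0.60, pair medians of 0.39 and 0.26 in pairs 1 and 2 and 0.82 and 0.92 in pairs 3 and 4, and a Spearman's rho of 0.84 with residues. Mrpl38, of 380 residues, was at 1.59 (SE 0.10), and Mrpl33, of 65 residues, at −2.55 (SE 0.14). Of 82 nuclear-encoded subunits of oxidative phosphorylation, 32 were higher and 27 lower, shares near those of all genes, with a median of 0.20. The pair medians turned from −0.22 and −0.30 in pairs 1 and 2 to 0.45 and 0.57 in pairs 3 and 4. Spearman's correlation with residues was 0.92 over the 81 with a residue count. Cox7c, a 63-residue subunit of complex IV, read 323, 313, 301 and 304 CPM in input and 64.6, 61.9, 76.4 and 99.6 CPM in polysomes, 4.18-fold lower (log2 −2.06, SE 0.14, adjusted p = 1.46e-05). Atp5b, the catalytic beta subunit of ATP synthase with 529 residues, read 3459, 3481, 3658 and 3029 CPM in input and 10103, 10390, 10018 and 7058 CPM in polysomes, 2.73-fold higher (log2 1.45, SE 0.12, adjusted p = 2.47e-05). Neither gene had overlapping libraries. Uqcrc1, a core protein of complex III, was at 1.64.

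**Figure D2:**
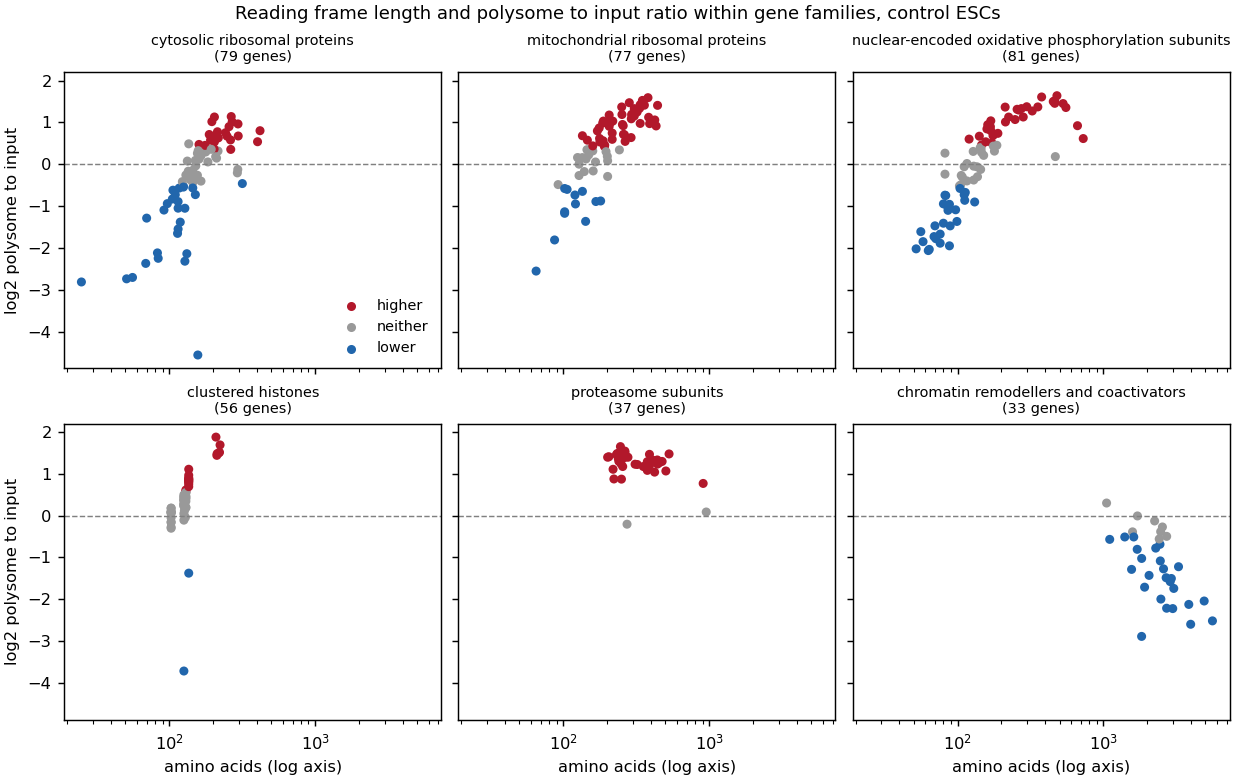
Residues of the reading frame (horizontal, log axis) against log2 of polysome over input (vertical) in 6 gene families, 1 point per gene, red where higher, blue where lower and grey where neither passed. Ribosomal proteins (79), mitochondrial ribosomal proteins (77) and subunits of oxidative phosphorylation (81) climb with length. The 37 proteasome subunits sit high, and none of the 33 chromatin remodellers was higher.

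Replication-dependent histones make up the bulk of chromatin protein in S phase. Their mRNAs have no poly(A) tail and end in a stem-loop bound by SLBP, which takes the place of the tail in translation. Of 57 tested, 19 were higher and 2 lower, with a median of 0.39, but the pair medians ran from −0.18 and −0.15 in pairs 1 and 2 to 0.45 and 1.35 in pairs 3 and 4. Of the 57, 2 were below 1 CPM in every polysome library and passed the filter only through input. The stem-loop was searched on the sense strand of each gene's representative transcript. It was found in 37 of the 57 (64.9%) and in 44 of 12375 coding transcripts tested (0.356%). The median was 0.37 in histones with it and 0.41 in those without it in these models. The elements of 4 histone classes are shown since one RNA element is shared by members with different values. Capitals mark the arms of the stem and lower case the loop. They lie on chromosome 13 of GRCm38 in GENCODE vM21, at chr13:23739512-23739527 for Hist1h1c, chr13:23752820-23752835 for Hist1h3b and chr13:23751572-23751587 for Hist1h2ab, all on the plus strand, and at chr13:23760800-23760815 on the minus strand for Hist1h4a.
Hist1h1c: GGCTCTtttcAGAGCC
Hist1h3b: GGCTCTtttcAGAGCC
Hist1h2ab: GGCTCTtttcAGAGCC
Hist1h4a: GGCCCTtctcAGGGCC

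Linker histones, the longest class, were the highest. All 6 H1 genes were higher, with a median of 1.51 and pair medians of 1.14, 1.04, 1.69 and 2.20. Hist1h1c read 199.9, 192, 179.5 and 267 CPM in input and 391, 394, 574 and 1124 CPM in polysomes, 2.71-fold higher with no overlap (log2 1.44, SE 0.19, adjusted p = 0.000259). Of 11 H3 genes, 10 were higher and 1 lower (median 0.85). Of 14 H2A genes 3 were higher and 0 lower (median 0.43), and of 14 H2B genes 0 were higher and 1 lower (median 0.28). In the H3 and in the H2B class, 1 gene each passed the filter only through input. The lower H2B gene, Hist2h2be, was such a gene, so its call is a description. None of the 12 H4 genes, with 103 residues, passed the test. Hist1h4a read 179, 176, 191 and 239.8 CPM in input and 104, 109.9, 179.8 and 461 CPM in polysomes, which overlapped (log2 −0.16, SE 0.27, adjusted p = 0.604). Its polysome value was below input in pairs 1 to 3 and above it in pair 4, and without replicate 4 it was lower (−0.52, adjusted p = 0.0231). The coding parts of these genes are nearly identical, so reads may be divided unevenly among them.

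Proteasome subunits, which form the barrel and cap that degrade tagged proteins, had the highest median of the 31 lists. Of 37 tested, 35 were higher and 0 lower, with a median of 1.29 and pair medians between 1.23 and 1.39. Psma6, a subunit of the catalytic core, read 191, 180.1, 180.4 and 205 CPM in input and 571, 487, 613 and 719.5 CPM in polysomes, 3.13-fold higher (log2 1.65, SE 0.11, adjusted p = 1.24e-05). Psma1 was at 1.43 and Psmc1, an ATPase of the cap, at 1.33. Psmd1, the scaffold of the cap with 953 residues, read 197, 188, 166 and 207 CPM in input and 228, 299, 133 and 179 CPM in polysomes, which overlapped (log2 0.09, SE 0.17, adjusted p = 0.654).

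Further housekeeping families of middle length were high. All 15 tubulin and actin genes tested were higher (median 1.02), among them Tubb5 at 0.92 and Actb at 0.62. Of 17 glycolytic enzymes, 14 were higher and 2 lower (median 1.07). Gapdh read 524, 505, 497 and 651 CPM in input and 1437, 1247, 1379 and 1640 CPM in polysomes, 2.62-fold higher with no overlap (log2 1.39, SE 0.10, adjusted p = 1.53e-05). Pgk1, which makes ATP in the pathway, was at 1.13, while the 917-residue hexokinase Hk2 was lower at −1.17. Of 16 chaperones of the endoplasmic reticulum (ER), 13 were higher and 0 lower (median 1.05), with Ppib at 1.56 and Calr at 1.13. Of 20 cytosolic and mitochondrial chaperones, 16 were higher and 1 lower (median 0.87), with Cct7, a subunit of the TRiC ring, at 1.15.

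The machinery of translation and RNA processing was mixed. Of 20 aminoacyl-tRNA synthetases, 15 were higher and 2 lower (median 0.53), with Hars at 1.18 and the longer Eprs and Lars, of 1512 and 1178 residues, at −1.43 and −1.44. Of 48 initiation factors, 26 were higher and 14 lower (median 0.56), with Eif3g at 1.40, the helicase Eif4a1 at 0.98 and the 113-residue Eif1 at −1.05. Of 21 Sm and LSm proteins, the small ring proteins of snRNPs, 14 were lower and 2 higher (median −0.62, with pair medians of −0.90, −0.93, −0.57 and −0.25). Snrpg, of 76 residues, read 110.3, 101, 97.2 and 117 CPM in input and 21.3, 24.0, 30.9 and 46.9 CPM in polysomes, 3.60-fold lower (log2 −1.85, SE 0.17, adjusted p = 4.27e-05). Snrpb, of 231 residues, read 165, 154, 141 and 181 CPM in input and 424, 378, 464 and 575 CPM in polysomes, 2.85-fold higher (log2 1.51, SE 0.11, adjusted p = 1.77e-05). Of 36 SR and hnRNP splicing proteins 16 were higher and 7 lower (median 0.20), with Hnrnpab at 1.19 and Hnrnpu at −1.65. Of 28 enzymes of sterol and fatty acid synthesis 16 were higher and 8 lower (median 0.50), with the isomerase Ebp at 1.68 and the oxidase Msmo1 at 1.23. Of 21 replication licensing genes 11 were higher and 3 lower (median 0.46), with Gins1 at 1.11 and Mcm6 at 0.65.

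**Figure D3:**
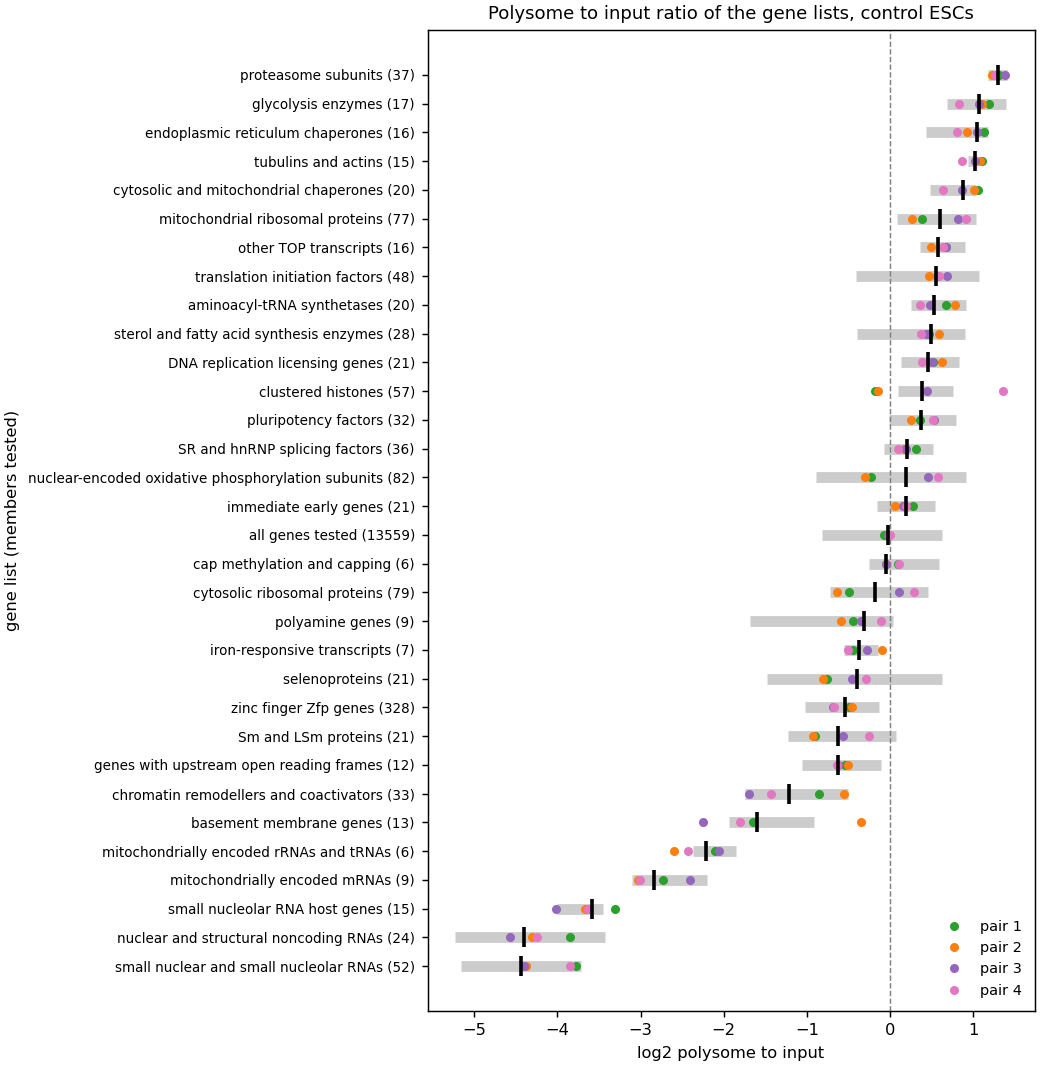
Log2 of polysome over input (horizontal axis) in the 31 gene lists and in all genes tested. Grey bars span the middle 50% of members, black ticks are medians and points are the medians of the 4 pairs. Proteasome subunits have the highest median (1.29), and nuclear RNAs (−4.40) and small nuclear and nucleolar RNAs (−4.44, with 44 of 52 members below 1 CPM in every polysome library) the lowest.

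mRNAs for very large proteins were poor in these polysome fractions. Of 33 chromatin remodellers and coactivators, 25 were lower and 0 higher, with a median of −1.22 and pair medians of −0.85, −0.56, −1.70 and −1.43. After subtracting the median of each gene's length class the median was −0.28. Chd4, the ATPase of the NuRD complex with 1915 residues, read 1036, 1039, 760.5 and 587 CPM in input and 302, 675, 149 and 142 CPM in polysomes. It was lower in all 4 pairs, 3.27-fold on average (log2 −1.71, SE 0.26, adjusted p = 0.000551), although polysome replicate 2 lay above input replicate 4. Kmt2d, a histone H3 methyltransferase with 5588 residues, read 48.3, 32.9, 64.7 and 43.9 CPM in input and 5.19, 17.4, 6.87 and 6.35 CPM in polysomes, 5.71-fold lower (log2 −2.51, SE 0.38, adjusted p = 0.000489). Chd2 was at −2.89 and Ep400 at −1.74.

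Of 13 basement membrane genes, which encode secreted matrix, 10 were lower and 1 higher (median −1.60). The pair medians were −1.64, −0.35, −2.25 and −1.80, and after subtracting the median of the length class the median was −0.64. Lama1, a laminin chain of 3083 residues, read 880.3, 906, 897 and 668 CPM in input and 164, 293, 121 and 102 CPM in polysomes, 5.33-fold lower (log2 −2.42, SE 0.21, adjusted p = 2.9e-05). Sparc, a secreted matrix protein of 302 residues, read 748, 866, 711 and 614 CPM in input and 2042, 2252, 1884 and 1366 CPM in polysomes, 2.54-fold higher (log2 1.35, SE 0.11, adjusted p = 2.01e-05). Neither had overlapping libraries. Dync1h1, the heavy chain of the dynein motor with 4644 residues, chosen after its value was seen, read 926, 886, 793 and 644 CPM in input and 102, 143, 64.4 and 63.6 CPM in polysomes, 9.15-fold lower (log2 −3.19, SE 0.17, adjusted p = 7.31e-06). Fasn, the 2504-residue fatty acid synthase and the lowest of the sterol and fatty acid list, was at −1.97.

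**Figure D4:**
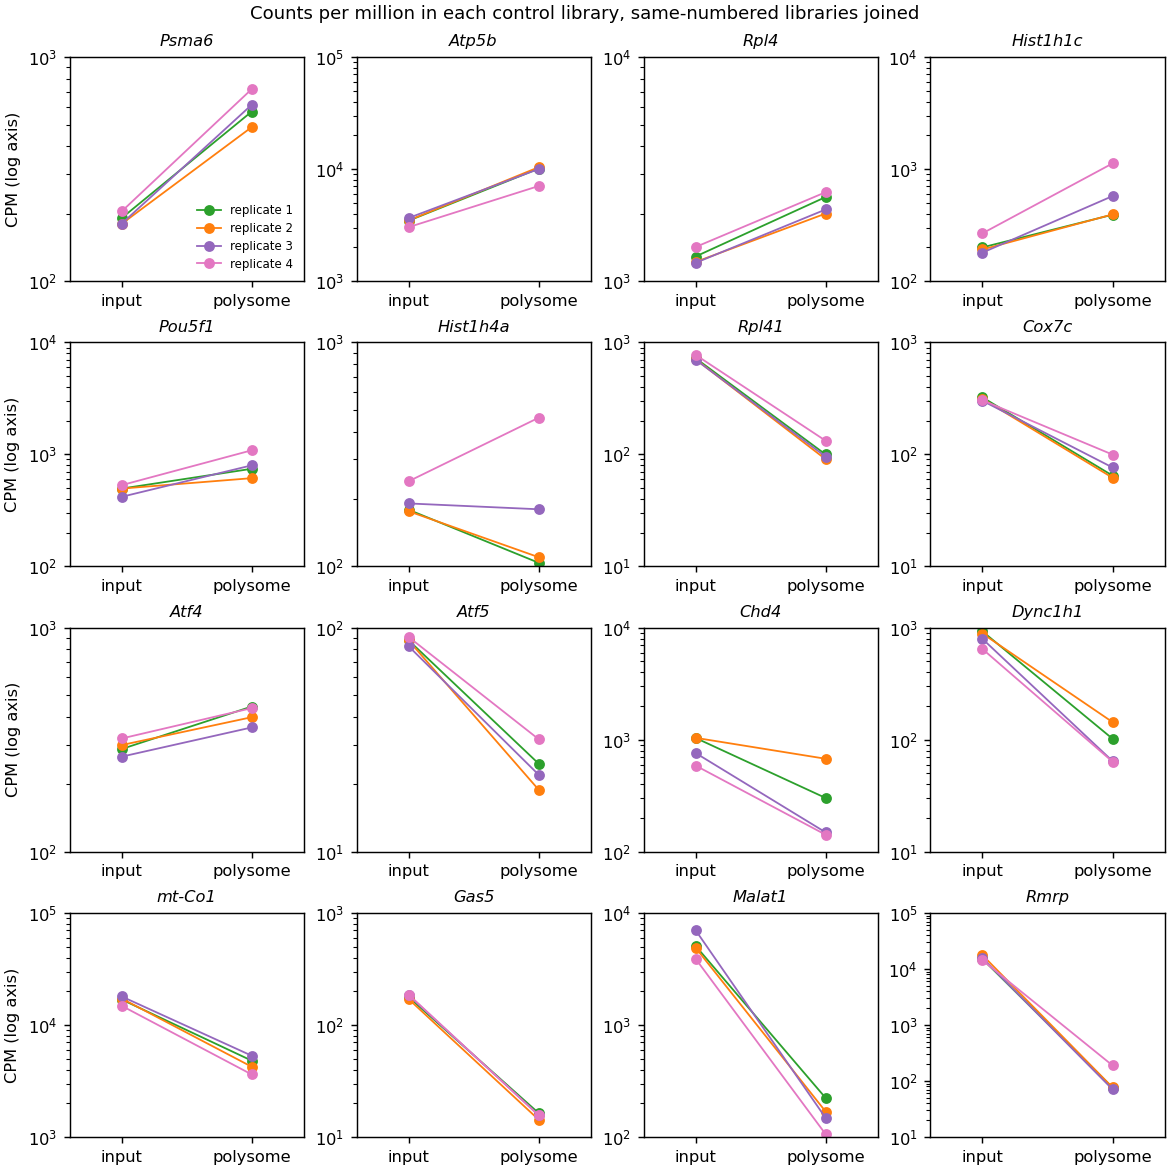
CPM (log axis) of 16 genes in the 4 input and 4 polysome libraries, with same-numbered libraries joined by a line. Psma6, Atp5b, Rpl4 and Hist1h1c go up in all 4 pairs, Rpl41, Cox7c, Dync1h1, mt-Co1, Gas5, Malat1 and Rmrp go down in all 4, and Hist1h4a goes both ways.

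Long 3′ UTRs, which hold most binding sites of microRNAs and RNA-binding proteins, went with a lower polysome share. The median was 0.37 for 3697 genes with under 500 bases, 0.13 for 5498 genes with 500 to under 2000 bases and −0.49 for 3180 genes with 2000 bases or more. The order was seen at a given reading frame length. Among genes of 200 to under 400 residues, the medians were 0.83, 0.47 and −0.26. Of the 1100 genes of this length with the shortest 3′ UTRs, 770 were higher and 129 lower, and of the 831 with the longest, 234 were higher and 396 lower. Below 100 residues the 3 medians were −1.41, −1.35 and −1.39, and no such order was seen. Spearman's rho between 3′ UTR length and log2 was −0.31 over 12375 coding genes.

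**Figure D5:**
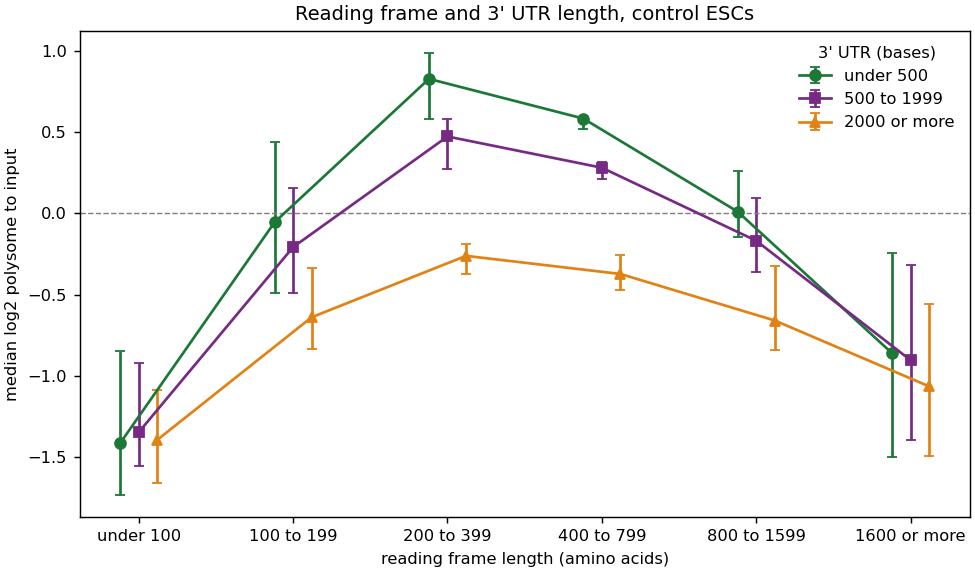
Median log2 of polysome over input (vertical) by residues of the reading frame (horizontal) for coding genes in 3 classes of 3′ UTR length, with bars from the lowest to the highest of the 4 pair medians. The medians fall with 3′ UTR length in each class from 100 residues up, though by little from 1600 residues up. They come together below 100 residues.

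Start codons in the 5′ UTR can take ribosomes before they reach the main frame. A 5′ UTR is annotated in 12169 of the 12375 coding genes, and the rest count here as having no upstream ATG. The 6053 coding genes with no upstream ATG had a median of 0.18, and the 967 with at least 5 had one of −0.29, with 243 higher and 462 lower. After subtracting the median of the length class, the values were 0.11 and −0.25. Zinc finger genes named Zfp, mostly KRAB-type repressors, had 21 members higher and 207 lower of 328 tested, with a median of −0.54 that was −0.69 after subtracting the median of the length class. Zfp42 (Rex1), an ESC marker, was higher at 0.90, as was Zfp277 at 1.12.

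Among 12 mRNAs known for inhibitory upstream frames, 8 were lower and 1 was higher, with a median of −0.62. Atf5, a stress-induced transcription factor whose upstream frames limit its translation in unstressed cells, read 87.8, 87.7, 82.6 and 90.9 CPM in input and 24.7, 18.9, 22.0 and 31.8 CPM in polysomes, 3.64-fold lower (log2 −1.86, SE 0.13, adjusted p = 1.39e-05). Atf4, the related factor of the integrated stress response with the same kind of upstream frames, read 287, 299, 266 and 320.1 CPM in input and 445, 398, 359 and 437 CPM in polysomes, 1.40-fold higher (log2 0.48, SE 0.09, adjusted p = 0.00206). The libraries overlapped in neither gene, and the directions were opposite. Ddit3, a target of ATF4 with an upstream frame of its own, was at −1.89, and Slc35a4 at −1.06. Ifrd1 was at −0.01 (adjusted p = 0.967).

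Polyamine genes are controlled at translation by the polyamines themselves. Of 9 tested, 4 were lower and 2 higher (median −0.32). Amd1, which makes the aminopropyl donor for spermidine, carries a short upstream frame on which ribosomes stall when polyamines are high. That frame, with capitals at its start and stop codon, lies at chr10:40302155-40302175 on the minus strand of GRCm38 and ends 296 bases before the end of the 5′ UTR in GENCODE vM21.
Amd1 upstream frame: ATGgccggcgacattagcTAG
Amd1 read 90.6, 89.1, 78.8 and 101 CPM in input and 58.8, 50.9, 54.1 and 71.6 CPM in polysomes, 1.53-fold lower with no overlap (log2 −0.62, SE 0.10, adjusted p = 0.000578). Oaz1, the antizyme whose full product needs a polyamine-driven frameshift, read 118, 122, 115 and 132 CPM in input and 33.6, 29.4, 35.3 and 60.2 CPM in polysomes, 3.20-fold lower (log2 −1.68, SE 0.15, adjusted p = 3.74e-05). Odc1, the ornithine decarboxylase that antizyme inhibits, read 875, 822, 856 and 989 CPM in input and 1352, 1121, 1433 and 1810 CPM in polysomes, 1.59-fold higher (log2 0.67, SE 0.11, adjusted p = 0.000771). Sat1, the acetyltransferase that starts polyamine breakdown, was at −1.73, and Srm, spermidine synthase, at 1.08.

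Iron responsive elements are hairpins that iron regulatory proteins bind when iron is short. In a 5′ UTR they block initiation. Of 7 mRNAs listed as iron-responsive, 4 were lower and 1 was higher (median −0.38). A search of the sense strand for C, 5 bases, CAGTGN and 5 bases that pair with the first 5 (G-T pairs allowed) found 15 of 12169 tested coding 5′ UTRs (0.123%). The elements of both ferritin genes are shown because both genes were lower in polysomes. Capitals mark the loop CAGTGN, with 5 paired bases on each side. In GRCm38 and GENCODE vM21 they lie at chr19:9982738-9982754 on the plus strand (Fth1) and chr7:45459785-45459801 on the minus strand (Ftl1).
Fth1: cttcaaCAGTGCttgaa
Ftl1: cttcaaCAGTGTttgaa

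Ftl1, the ferritin light chain, read 319, 326, 345 and 352 CPM in input and 134, 124, 136 and 149.7 CPM in polysomes, 2.47-fold lower (log2 −1.31, SE 0.09, adjusted p = 1.55e-05). Fth1, the ferritin heavy chain, read 329, 315, 295 and 321 CPM in input and 221, 188, 221 and 213 CPM in polysomes, 1.49-fold lower (log2 −0.58, SE 0.10, adjusted p = 0.000922). Neither had overlapping libraries. A match to the element says nothing of whether the proteins were bound, and both ferritins have processed pseudogenes.

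Selenoproteins read a UGA codon as selenocysteine, which slows or ends translation when selenium is short. Of 21 tested, 7 were higher and 10 lower (median −0.39). Gpx4, the peroxidase that protects membranes from lipid peroxides, read 295, 281, 302 and 267 CPM in input and 64.7, 65.0, 91.8 and 123 CPM in polysomes, 3.45-fold lower (log2 −1.78, SE 0.18, adjusted p = 6.05e-05). The 88-residue Selenow was at −3.02. The thioredoxin reductases Txnrd1 and Txnrd2, in which the UGA lies at the end of the frame, were higher at 0.60 and 1.36. Gpx4 has 197 residues, and the part of frame length or of the place of the UGA in these values was not tested.

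Genes of the pluripotent state were more often higher than lower, 18 against 6 of 32 tested (median 0.37). Pou5f1 (Oct4), the central pluripotency factor, read 495, 495, 418 and 531 CPM in input and 744, 613, 798 and 1087 CPM in polysomes, 1.64-fold higher (log2 0.72, SE 0.14, adjusted p = 0.00193). Nanog read 274, 253, 236 and 278 CPM in input and 463, 413, 415 and 452 CPM in polysomes, 1.68-fold higher (log2 0.75, SE 0.09, adjusted p = 0.00016). Sox2 was at 0.09 (SE 0.09, adjusted p = 0.427) and Klf4 at 0.12 (SE 0.11, adjusted p = 0.337). Esrrb, a nuclear receptor of the naive state with a 3′ UTR of 2560 bases, was lower at −0.85. Lin28a, which blocks let-7 maturation and binds mRNAs, read 74.3, 75.3, 75.4 and 101 CPM in input and 14.5, 21.5, 20.3 and 33.8 CPM in polysomes, 3.74-fold lower with no overlap (log2 −1.90, SE 0.14, adjusted p = 1.57e-05). Eras, the ESC-expressed Ras protein, was at 1.38. Of 21 immediate early genes, 8 were higher and 4 lower (median 0.19). The share higher was near that of all genes, and the share lower was below it. After subtracting the median of the length class, the median was −0.03. Ccn1 was the highest at 1.02, Fos was at 0.81 and Jund was the lowest at −0.72.

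RAM, encoded by Ramac, is the activating subunit of the cap methyltransferase RNMT, and the series was built around it. Of 6 cap-forming genes, 2 were higher and 1 was lower, with a median of −0.04 and pair medians on both sides of 0. Rnmt read 209, 242, 191 and 208 CPM in input and 440.0, 469, 359 and 285 CPM in polysomes, 1.80-fold higher with no overlap (log2 0.85, SE 0.12, adjusted p = 0.000401). Ramac was at −0.27 (SE 0.18, adjusted p = 0.21), and without replicate 4 it was lower (−0.50, adjusted p = 0.0187). Cmtr1, the methyltransferase of the first transcribed nucleotide, was lower at −1.66, with means of 4.53 CPM in input and 1.44 in polysomes.

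The coding genes with the most extreme values and at least 10 CPM on average showed both ends of the range. Among the highest after Lars2 were Atp1b2, a subunit of the sodium pump, at 1.77, Bckdhb, of branched-chain amino acid breakdown, at 1.73, Itm2a at 1.73 and Igfbp2, which binds insulin-like growth factors, at 1.71. Bckdhb read 88.2, 86.2, 90.4 and 79.9 CPM in input and 295, 280.2, 322 and 251 CPM in polysomes (SE 0.09, adjusted p = 7.21e-06). Among the lowest were Mid1, a ubiquitin ligase, at −4.86, Cnpy1 at −3.98, the 63-residue copper chaperone Cox17 at −3.83 and Mllt6 at −3.71. Mid1 and Cox17 averaged only 1.08 and 1.88 CPM in polysomes, so the size of their change is uncertain. Gm21887, which lies after Mid1 on chromosome X, was lower still at −6.11. Mllt6, of 1079 residues, read 171, 148, 148 and 162 CPM in input and 12.9, 14.8, 8.71 and 12.1 CPM in polysomes, 13.1-fold lower (SE 0.14, adjusted p = 2.75e-06). The polysome libraries of both genes lay apart from the input libraries.

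Processed pseudogenes are copies of mRNAs. Of 354 tested, 160 were higher and 85 lower, with a median of 0.35, against one of 0.03 for protein-coding genes. Rps4l, at 1.60, was among the highest entries without a protein. Reads of a parent mRNA can be counted on such copies, and these values are uncertain for that reason. The 100 loci of no settled class that passed the filter had a median of −3.81, and 81 of them passed only through input.

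The same comparison in the 8 libraries of RAM siRNA cells, which share no library with these, gave list medians that were close in some lists and further apart in others. The proteasome median was 1.29 in control and 1.27 in RAM siRNA cells, that of chromatin remodellers −1.22 and −1.20, that of nuclear RNAs −4.40 and −4.14, that of ribosomal proteins −0.18 and −0.07 and that of histones 0.39 and 0.59. That of polyamine genes was −0.32 and −0.58, that of SR and hnRNP splicing proteins 0.20 and −0.02 and that of immediate early genes 0.19 and 0.07. Of 9887 genes called in control cells and tested in both, 9872 had the same sign. By edgeR's quasi-likelihood test, the polysome to input ratio differed between the siRNAs at an adjusted p under 0.05 in 0 of 13559 genes (0%). An unadjusted p under 0.05 was found in 179, fewer than chance alone gives at that threshold. The model had a factor for each culture but let the fraction differ only by siRNA. Differences of the fraction between replicate numbers thus counted as noise, and 0 calls do not show that the ratios were equal. The paper reported such a change in a small set of genes.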

How the data were processed

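RNA from lysates and pooled polysome fractions was sequenced after rRNA depletion with a stranded total RNA kit. The authors mapped reads to mm10 (GRCm38) with STAR 2.5.1b, counted them per Ensembl gene with HTSeq and deposited raw counts, without normalization. Strand and overlap settings and the annotation release are not given in the sources used here, so near-identical copies and overlapping genes are uncertain. The count table held 0 columns of other samples.

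Genes reaching 1 CPM in 4 or more of the 8 control libraries were fitted with edgeR 4.0.16 in R 4.3.3 (TMM scaling, quasi-likelihood test, factors for replicate number and fraction), with Benjamini-Hochberg adjustment over 13559 genes. SE is the log2 divided by the square root of F. The replicate factor was used because input and polysomes came from the same lysate. Over 9134 genes of 10 CPM or more, deviations of same-numbered libraries from their group means correlated at 0.399 on average, and those of different numbers at −0.131. Centring on the group means largely sets the value for different numbers once the other is given, so it adds no separate evidence. Paired log2 values used a pseudocount of 0.05 CPM. The 4 replicates are biological replicates per the study's methods. No library was a copy of another by a chi-square of counts. The fit was tested on simulated counts with planted changes.

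Gene types, reading frames and UTRs came from GENCODE vM21 (GRCm38), which held 13525 of the genes tested, in place of the RefSeq proteins planned. A representative transcript stood for each gene, chosen by protein-coding type, complete ends, APPRIS rank as a main isoform and the basic tag, in that order. Ties went to the longest coding sequence and then to the longest transcript. Named genes were the examples marked in the lists, the highest, lowest and most abundant member of each list, and the highest and lowest genes that averaged 10 CPM or more and went 1 way in the 4 pairs. Dync1h1, Gm42418 and Gm26917 fall outside this rule and were picked once their values were known. The members and lists were chosen with earlier results of these data known. The alternatives were DESeq2 1.42.0, limma-voom (limma 3.58.1), 4 other scalings, 3 other filters on low counts, no replicate factor, all 16 libraries, a 1.5-fold test, an adjusted p under 0.01, and subsets of replicates. Some genes are not reported here.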

Additional observations from a re-analysis of the deposited data

Results flagged for a closer look

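The 129 groups of 4 values were input or polysome libraries of a gene, or the pair medians of a list or length class. In 7 of them, 1 value lay far from the other 3, with a gap past the critical value of Dixon's test for 4 samples. Chance gives such a gap in about 1 in 20 groups. All 7 were groups of a gene's libraries. They were polysome replicate 4 of Atp5b (7058 CPM) and of Rmrp (189 CPM), polysome replicate 2 of Kmt2d (17.4 CPM), input replicate 4 of Lama1 (668 CPM) and of Lin28a (101 CPM), input replicate 1 of Lars2 (43.5 CPM) and input replicate 3 of Meg3 (204 CPM). All 7 genes kept their direction and their call when any replicate was left out. Without replicate 2 the log2 of Kmt2d was −3.06, and without replicate 4 that of Lars2 was 1.53.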

How the results depend on the processing

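Counts of genes higher and lower in polysomes ranged from 4039 to 5599 and from 4359 to 6634 over the alternatives other than the 1.5-fold test, which gave 2492 and 3278, and from 4243 to 4866 and from 4616 to 5059 when a replicate was left out. Without the replicate block, 4539 were higher and 4814 lower, and of the named genes Eif4g1, Hspe1 and Tfrc lost their call. Library-size scaling shifted all genes by −0.14 and gave 4148 higher and 5835 lower, so that 41.6% of calls were higher against 48.2%. The median of genes with 400 to under 800 residues moved from 0.19 to 0.054 with library-size scaling, 0.13 with 1 CPM required in all 8 libraries and 0.15 with 1 CPM in 10 of 16. The class of 100 to under 200 residues ran from −0.53 in replicates 1 and 2 alone to 0.10 in replicates 3 and 4 alone. With replicates 3 and 4 alone, Gm42418 was at 0.71 and Hist1h4a at 0.45, against values below 0 in all 4. Of 196 named genes 174 were called, and 154 to 178 under the alternatives. Of the 31 lists 16 had a median above 0, and 15 to 18 under the alternatives. The causes were not tested. Of the genes tested, 639 were below 1 CPM in every polysome library and 37 in every input library. These passed the filter through 1 fraction alone.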
